A study of Mus musculus with 67 samples.

Results

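Described here are 40 marker genes of cells other than T cells, read in 67 RNA-seq libraries of T-cell populations sorted from the mouse hypothalamus and the rest of the brain. The 40 genes, of 24461 genes counted in the larger of the 2 experiments, stand for microglia (11 genes), astrocytes (9), oligodendrocytes (6), endothelial cells (6), neurons (4), red cells (2), B cells (1) and myeloid cells (1). They were chosen on measured values, namely their levels by tissue and by sorted population, with earlier results of these libraries known. Levels by tissue and by population are therefore given as a description, without a test, and the tests below are of strain and diet.

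The second experiment holds 59 libraries, with 16 of activated conventional T cells (labeled act) and 16 of Tregs from the hypothalamus, and 13 of act and 14 of Tregs from the rest of the brain (rest brain). BalbC mice were female and BL6 mice male, so strain and sex cannot be told apart, and the mice received standard diet (SD) or HFHS diet (labeled HFD) from 6 weeks of age. Cells were pooled over mice, and each label ends in a pair of numbers. These are called pool numbers here, although the labels do not state what they stand for. In most labels the last number is higher than the first, by differing amounts, and in some it is lower. Every strain and diet had 4 libraries of each population in the hypothalamus. Rest brain had 4 act libraries of BL6 mice on SD and 3 in each other group, and 4 Treg libraries in each group except BalbC mice on SD, with 2. The act cells were sorted as live CD4+CD25−Foxp3GFP−CD44hiCD62Llow cells and the Tregs by Foxp3GFP, after manual homogenization and a Percoll gradient, and CD8a, CD11b, CD11c, CD14, F4/80 and B220 served to exclude other leukocytes. The pilot experiment holds 8 hypothalamic libraries, 1 for each condition, so that its values have no replicate error. In the pilot, *ob*/*ob* and Bl6 WT mice (7 pooled females each) gave CD4+ T cells and CD25hi Tregs, and Foxp3GFP Balb/c mice after 16 weeks of HFHSD or regular diet (9 pooled females each) gave CD4+ CD44- T cells and Tregs.

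Microglia are the resident macrophages of brain tissue, astrocytes supply and buffer neurons, oligodendrocytes make myelin, and endothelial cells line the vessels that form the blood-brain barrier. T cells are a small minority among the cells of a healthy brain. Several markers are not exclusive to their cell type: T cells also transcribe *Mbp* from an upstream start, *Cnp*, *Pecam1* and, in effector cells, *Cx3cr1*.

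Levels are given as CPM, estimated counts scaled to the library total, and genes are compared with each other only in TPM, which are also scaled by length. A gene was counted as detected above 3 counts. Library totals ran from 1724154 to 38482282 counts, so that 3 counts corresponded to 0.0780 to 1.74 CPM in hypothalamic Tregs, 0.146 to 0.227 CPM in hypothalamic act cells, 0.106 to 0.265 CPM in rest brain act cells and 0.120 to 0.336 CPM in rest brain Tregs. These floors, and the intervals given below, cover counting error only. In bulk libraries, fewer cells of a type and less RNA per cell cannot be told apart.

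T-cell identity was checked on 8 genes of T cells (*Cd3e*, *Cd3d*, *Cd3g*, *Cd4*, *Cd247*, *Lck*, *Cd2* and *Cd5*). Their summed level was 8126 to 10102 CPM in hypothalamic act cells with a median of 9412, and 7896 to 10169 CPM in rest brain act cells with a median of 8971. In rest brain Tregs it was 7608 to 11357 CPM with a median of 9581, and in hypothalamic Tregs 199 to 10655 CPM with a median of 9000. All groups thus lay in a similar range except at the lower end of hypothalamic Tregs. The gene with the highest mean of the list was *Cd3g* in each group, at 3046 to 3557 TPM. A list of 6 genes of Tregs had medians of 490 CPM in hypothalamic act cells, 599 CPM in rest brain act cells, 2772 CPM in hypothalamic Tregs and 3543 CPM in rest brain Tregs, led by *Tnfrsf18* in TPM. *Foxp3* was at 0 to 13.8 CPM with a median of 3.93 in hypothalamic act cells, 0.0355 to 12.6 CPM with a median of 6.09 in rest brain act cells and 241 to 767 CPM with a median of 385 in rest brain Tregs. In hypothalamic Tregs its range was 0.0977 to 862 CPM with a median of 206. The lower end was set by BalbC SD replicate 2, BL6 HFD replicate 3, BL6 SD replicate 3 and BL6 SD replicate 2, at 0.0977, 0.429, 1.21 and 3.48 CPM, while the other hypothalamic Treg libraries had 30.4 CPM or more.

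A pair of hypothalamic Treg libraries stood apart by their member genes, and were left out in alternatives chosen after seeing the data. The 40 genes summed to 28442 CPM (2.84% of counts) in BalbC SD Treg replicate 2 and to 26625 CPM (2.66%) in BL6 SD Treg replicate 3. The next highest of the 16 libraries, BL6 SD Treg replicate 1, had 2857 CPM, and the median was 551 CPM. BL6 SD Treg replicate 3 went against its label, with 199 CPM for the T-cell list, 73.7 CPM for the Treg list, 1.21 CPM of *Foxp3* and 31 of the 40 members detected. Its lists stood at 8951 CPM for endothelial cells, 7204 CPM for astrocytes, 6541 CPM for oligodendrocytes, 2218 CPM for microglia and 1682 CPM for myeloid cells. BalbC SD Treg replicate 2 held 20154 CPM of the microglia list, 5655 CPM of the endothelial list and 2415 CPM of the astrocyte list. Its T-cell list came to 4134 CPM and its Treg list to 3211 CPM, with 1 count of *Foxp3*, and 2370 genes were detected, the fewest of the 59 libraries.

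Smaller amounts marked other libraries. In the hypothalamus, BL6 SD Treg replicate 2 had the lowest total, 1724154 counts, and 1386 CPM of the 40 genes. In rest brain, BalbC SD act replicate 3 had 1323 CPM with 32 members detected, and BalbC SD Treg replicate 2 had 1364 CPM with 21 members detected. Their labels carry the same pool numbers, 42 and 46. BalbC HFD Treg replicate 4 followed in rest brain with 899 CPM and 23 members detected.

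**Figure D1:**
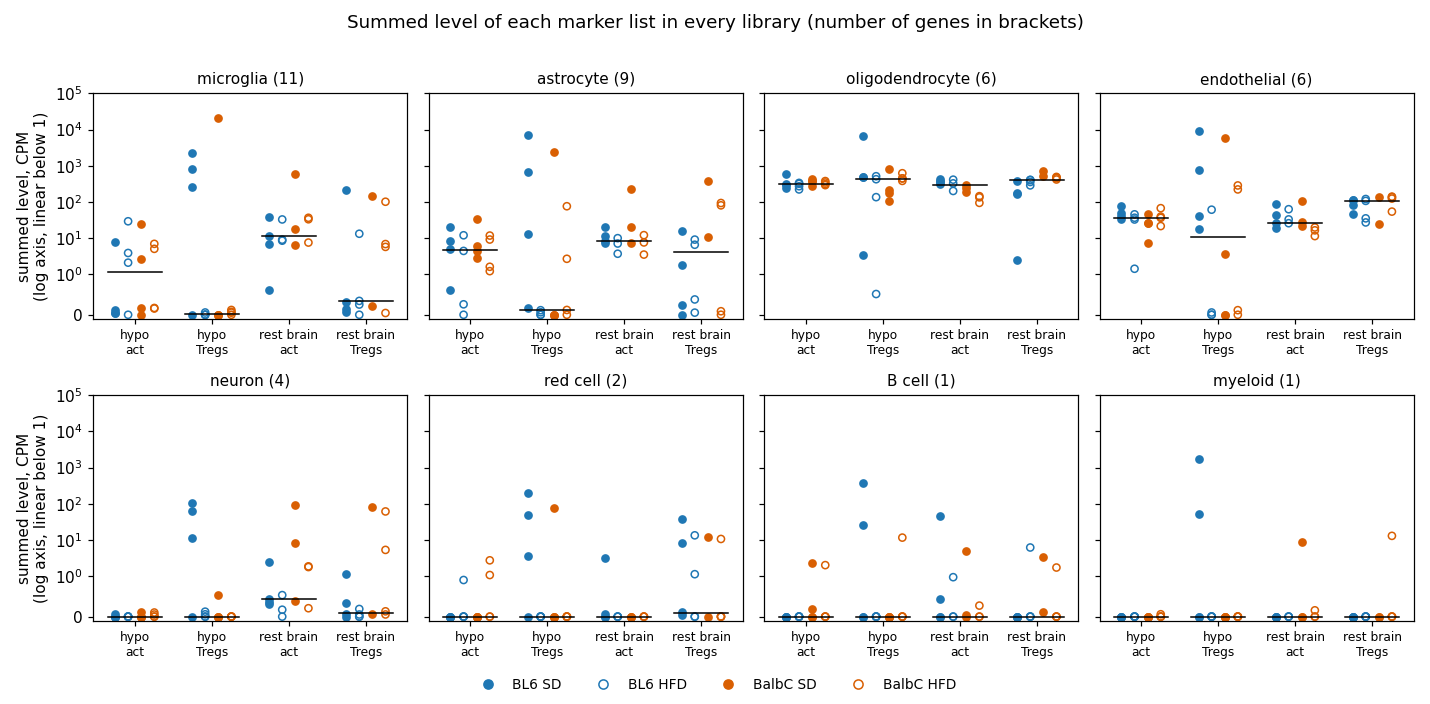
Summed CPM of the 8 marker lists in each of the 59 libraries of the second experiment, on a log axis that is linear below 1, by tissue and population (filled points SD, open points HFD, black line the median). In hypothalamic Tregs the microglia list ran from 0 to 20154 CPM with a median of 0.0260, while the oligodendrocyte list had medians of 297 to 436 CPM in the 4 groups.

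Over the 59 libraries, 38 of the 40 members were detected in at least 1 library. *Aldh1l1*, which encodes a folate enzyme of astrocytes, reached at most 2 counts, and *Hbb-bs*, a beta globin of adult red cells, had 0 counts in all 59. In contrast, *Mbp* and *Cnp* were detected in 54 and 57 libraries and *Pecam1* in 49, whereas 34 members were detected in 20 libraries or fewer and 18 in 10 or fewer. The highest level was in a hypothalamic Treg library for 31 members, 13 of them in each of the 2 libraries that stood apart. Rest brain act libraries had 8 to 32 members detected with a median of 15, against 4 to 7 with a median of 6 in hypothalamic act libraries. Treg libraries had 1 to 31 with a median of 3 in the hypothalamus and 4 to 23 with a median of 6 in rest brain. The ranges of act libraries from the 2 tissues did not overlap, and those of the Treg libraries did. This was not particular to the members: over all genes, 9371 to 10481 were detected in hypothalamic act libraries and 10847 to 14182 in rest brain act libraries, and the Treg libraries overlapped. In hypothalamic act libraries, 24 members were detected in none and 3 in all 16. In hypothalamic Tregs, 4 were in none and 0 in all 16, and 28 were in 1 to 3 libraries. Rest brain act libraries had 2 members in none and 13 in more than 50% of libraries, and rest brain Tregs had 9 in none and 3 in every library.

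**Figure D2:**
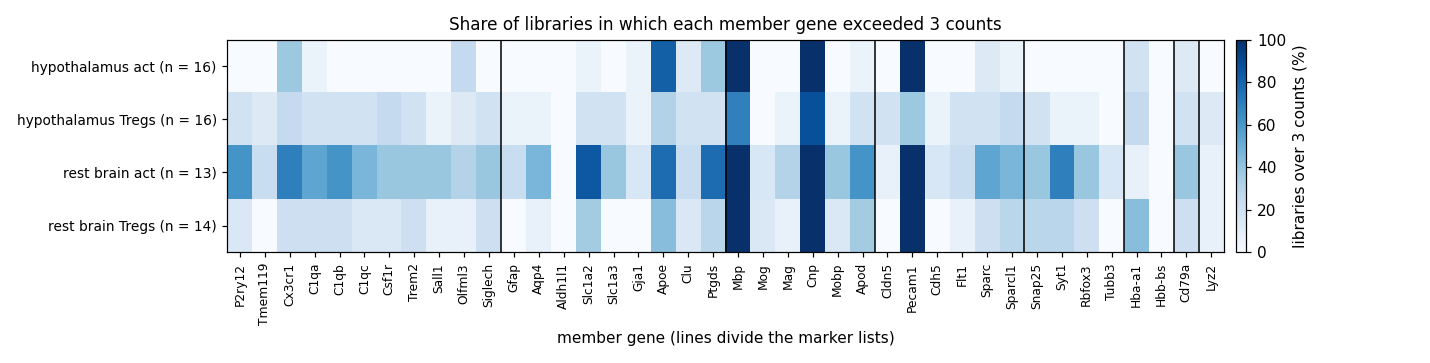
Percentage of libraries with more than 3 counts of each member gene, by tissue and population, with lines between the marker lists. *Mbp*, *Cnp* and *Pecam1* were detected in all 16 hypothalamic act, all 13 rest brain act and all 14 rest brain Treg libraries, and *Hbb-bs* in none.

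The microglia list has 11 genes: *P2ry12* and *Cx3cr1*, receptors for purine nucleotides and fractalkine, *Tmem119*, a surface protein, *C1qa*, *C1qb* and *C1qc*, the chains of complement C1q, *Csf1r* and *Trem2*, receptors for survival and for lipids, the transcription factor *Sall1*, the secreted *Olfml3* and the lectin *Siglech*. Summed, they stood at 0 to 29.4 CPM with a median of 1.15 in hypothalamic act cells and at 0.603 to 585 CPM with a median of 11.5 in rest brain act cells. In hypothalamic Tregs the range was 0 to 20154 CPM with a median of 0.0260, and in rest brain Tregs 0 to 212 CPM with a median of 0.332. All 13 rest brain act libraries had at least 1 gene of the list detected, against 8 of 16 hypothalamic act, 4 of 16 hypothalamic Treg and 8 of 14 rest brain Treg libraries. Only rest brain BalbC SD act replicate 3 had all 11 genes, and the 2 hypothalamic Treg libraries that stood apart had 10. Per length, the list was led by *Olfml3* in hypothalamic act cells (mean of 1.52 TPM), *C1qb* in hypothalamic Tregs (369 TPM), *P2ry12* in rest brain act cells (11.8 TPM) and *C1qc* in rest brain Tregs (13.4 TPM). The medians of *Olfml3*, *C1qb* and *C1qc* in those groups were 0 TPM, so a few libraries made their means.

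*P2ry12* was detected in 0 of 16 hypothalamic act, 3 of 16 hypothalamic Treg, 8 of 13 rest brain act and 2 of 14 rest brain Treg libraries. In rest brain act cells it stood at 0 to 265 CPM with a median of 4.63. Its highest levels in hypothalamic Tregs were 4866 CPM in BalbC SD replicate 2, 413 CPM in BL6 SD replicate 3 and 308 CPM in BL6 SD replicate 1, and the other 13 libraries had 3 counts or fewer. *Tmem119* was detected in 5 libraries, at 1322 CPM in BalbC SD Treg replicate 2 of the hypothalamus and at 22.6 CPM in BalbC SD act replicate 3 of rest brain. The transcription factor *Sall1* reached 2.37 CPM at most, in BL6 SD Treg replicate 1 of the hypothalamus, and had 0 counts in BalbC SD Treg replicate 2, where the rest of the list was detected. *Cx3cr1* was the member of the list found in most libraries, 22 of 59. In BL6 SD Treg replicate 2 of the hypothalamus, the list of 258 CPM consisted of *Cx3cr1* (148 CPM), *Siglech* (98.0 CPM) and *Csf1r* (11.6 CPM), with 0 counts of *P2ry12*, *Tmem119* and the C1q chains. In BL6 SD Treg replicate 3 of rest brain, the list of 212 CPM was made of *C1qc* (110 CPM), *C1qb* (65.7 CPM) and *Siglech* (36.03 CPM), with 0 counts of *P2ry12* and *Tmem119*. The genes of this and the preceding library were chosen after their values were seen.

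Among 7 further genes of microglia, the sum had medians of 411 CPM in hypothalamic act cells, 840 CPM in hypothalamic Tregs, 475 CPM in rest brain act cells and 815 CPM in rest brain Tregs. *Ctss*, a lysosomal protease that T cells also express, was the most abundant of them in all 4 groups, with means of 261, 1041, 307 and 669 TPM. *Ctss* was detected in 59 libraries and *Gpr34* in 50, whereas *Tyrobp*, *Aif1* and *P2ry13* were detected in 18, 15 and 7 libraries. In BalbC SD Treg replicate 2 of the hypothalamus the 7 genes came to 19644 CPM. Next among hypothalamic Tregs was BL6 HFD replicate 3 with 4057 CPM of the 7 genes and 0 counts of the 11 members, so the 2 lists did not rank the libraries alike.

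Of the 9 astrocyte genes, *Gfap* encodes the intermediate filament of these cells, *Aqp4* their water channel, *Slc1a2* and *Slc1a3* their glutamate transporters and *Gja1* a gap junction protein. *Apoe* and *Clu* encode secreted lipid carriers and *Ptgds* a prostaglandin D synthase. The list stood at 0 to 33.7 CPM with a median of 4.86 in hypothalamic act cells, and at 3.54 to 232 CPM with a median of 8.47 in rest brain act cells. In Tregs it ran from 0 to 7204 CPM with a median of 0.116 in the hypothalamus and from 0 to 376 CPM with a median of 4.24 in rest brain. Defining markers were rarely detected: *Gfap* was detected in 4 libraries with a highest level of 2.38 CPM, and *Aqp4* in 8 with a highest level of 25.1 CPM. Both maxima were in BL6 SD Treg replicate 3 of the hypothalamus, and BalbC SD Treg replicate 2 had 0 counts of *Gfap* and *Aqp4* at 2415 CPM of the list. By mean TPM, *Ptgds* was the most abundant of the list in hypothalamic act cells (6.79), rest brain act cells (21.4) and rest brain Tregs (39.2), and *Apoe* in hypothalamic Tregs (571). *Ptgds*, which choroid plexus and meninges also express, was detected in 6 of 16, 10 of 13 and 4 of 14 libraries of the former 3 groups. *Apoe*, which macrophages also express, was detected in 34 of 59 libraries. It was at 0 to 6.62 CPM with a median of 2.62 in hypothalamic act cells and at 0 to 6085 CPM with a median of 0.0137 in hypothalamic Tregs.

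A set of 8 further astrocyte genes had medians of 36.3 and 35.99 CPM in act cells of the hypothalamus and rest brain, and of 21.6 and 83.5 CPM in Tregs of the same tissues. Its most abundant genes by mean TPM were *Ndrg2* (10.3 in hypothalamic act cells and 20.9 in rest brain Tregs) and *Glul* (37.1 in hypothalamic Tregs and 9.48 in rest brain act cells). In hypothalamic Tregs *Glul* had a median of 4.53 TPM, and 455 TPM in BL6 SD replicate 3. *Glul*, a glutamine synthetase, and *Ndrg2* are expressed by T cells as well, and were detected in 54 and 44 libraries. *Gjb6* and *S100b*, named here after their values were seen, were detected in 4 and 9.

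The levels of the oligodendrocyte list rested mostly on *Mbp* and *Cnp*. The list stood at 222 to 582 CPM with a median of 315 in hypothalamic act cells and at 94.7 to 431 CPM with a median of 297 in rest brain act cells. In Tregs it ran from 0.515 to 6541 CPM with a median of 436 in the hypothalamus, and from 2.51 to 728 CPM with a median of 406 in rest brain. Without *Mbp* and *Cnp*, the medians were 0 CPM in hypothalamic act cells, 3.03 CPM in rest brain act cells and 0.0591 CPM in rest brain Tregs. *Cnp*, which encodes a phosphodiesterase of the myelin sheath, was the most abundant gene of the list in hypothalamic act cells (mean of 140 TPM), rest brain act cells (97.7 TPM) and rest brain Tregs (174 TPM). In hypothalamic Tregs, *Apod*, a lipid carrier, led by mean TPM at 283 with a median of 0, because of 6453 CPM in BL6 SD replicate 3. *Mog*, a protein of the outer myelin surface, was detected in 4 libraries, none of them from the hypothalamus, and reached 6.17 CPM in BalbC SD act replicate 3 of rest brain. The adhesion protein *Mag* was detected in 6 libraries with a highest level of 7.50 CPM in that same library, and *Mobp*, another myelin protein, in 8 with a highest level of 52.0 CPM in BalbC SD Treg replicate 2 of rest brain.

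*Mbp* can be transcribed from an upstream start, giving golli transcripts in lymphocytes and other cells, or from downstream starts, giving the classic myelin basic protein. It was at 37.1 to 202 CPM with a median of 87.0 in hypothalamic act cells and at 0 to 219 CPM with a median of 39.3 in hypothalamic Tregs. In rest brain, *Mbp* was at 35.5 to 155 CPM with a median of 68.2 in act cells and at 0.299 to 170 CPM with a median of 63.7 in Tregs. The deposited files list 8 transcript names for *Mbp*, of which 6 start at least 79324 bases downstream of the first start. The name that ends 26934 bases before the last end took 93.4% of all *Mbp* counts over the 59 libraries, and over 50% in 51 of the 54 libraries in which *Mbp* was detected. The share was 95.4% in hypothalamic act cells, 96.3% in hypothalamic Tregs, 93.7% in rest brain act cells and 87.3% in rest brain Tregs. The 6 downstream names had more than 3 counts in 22 libraries. They were highest in rest brain BalbC HFD Treg replicate 4 at 63.3 CPM, in rest brain BalbC SD act replicate 3 at 40.4 CPM and in hypothalamic BL6 SD Treg replicate 1 at 36.6 CPM. All 3 libraries also had neuron and astrocyte members detected. How Salmon divided reads among overlapping names was not tested.

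Another 8 oligodendrocyte genes had medians of 0.325 and 0.0295 CPM in act cells and Tregs of the hypothalamus, and of 9.90 and 4.75 CPM in act cells and Tregs of rest brain. *Mal*, a proteolipid that T cells express too, was the most abundant of them in hypothalamic Tregs with a mean of 20.9 TPM and was detected in 10 libraries. The list was highest in rest brain BalbC SD Treg replicate 2 at 661 CPM, hypothalamic BL6 SD Treg replicates 3 and 1 at 549 and 488 CPM and rest brain BalbC SD act replicate 3 at 404 CPM.

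The 6 endothelial genes are *Cldn5* and *Cdh5*, proteins of tight and adherens junctions, *Pecam1*, an adhesion molecule, *Flt1*, a VEGF receptor, and *Sparc* and *Sparcl1*, secreted matrix proteins that microglia and astrocytes also make. Together they stood at 1.44 to 75.7 CPM with a median of 36.7 in hypothalamic act cells and at 11.5 to 106 CPM with a median of 27.0 in rest brain act cells. The range in hypothalamic Tregs was 0 to 8951 CPM with a median of 10.6, and that in rest brain Tregs 25.3 to 141 CPM with a median of 109. Without *Pecam1* the median was 0 CPM in hypothalamic act cells and 0.0687 CPM in rest brain Tregs. By mean TPM, *Pecam1* led in hypothalamic act cells (13.6), rest brain act cells (10.8) and rest brain Tregs (33.8), and *Sparc* in hypothalamic Tregs (249, with a median of 0). *Cldn5* was detected in 4 libraries and *Cdh5* in 3, both with their highest level in BL6 SD Treg replicate 3 of the hypothalamus, at 2122 and 204 CPM. That library also had 1030 CPM of *Flt1*. In BalbC SD Treg replicate 2, 5612 of 5655 CPM of the list were *Sparc*, *Cldn5* was at 39.7 CPM, and *Cdh5* and *Pecam1* had 0 counts. Of the 2 libraries standing apart, 1 thus held all 6 endothelial genes and the other 4 of them, *Cldn5*, *Flt1*, *Sparc* and *Sparcl1*.

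A list of 8 further endothelial genes set BL6 SD Treg replicate 3 apart, with 8906 CPM against 68.3 CPM in the next library of hypothalamic Tregs, BalbC HFD replicate 1. BalbC SD Treg replicate 2, which came next on the member list through *Sparc*, was not among the 3 highest here. Its medians were 0.109 CPM in hypothalamic act cells, 0.0639 CPM in hypothalamic Tregs, 0.637 CPM in rest brain act cells and 0 CPM in rest brain Tregs. *Slco1a4*, an organic anion transporter of brain vessels, was the most abundant of them in hypothalamic Tregs with a mean of 88.0 TPM. *Egfl7*, a secreted vascular protein, led in hypothalamic act cells, rest brain act cells and rest brain Tregs with means of 0.311, 0.934 and 0.0107 TPM.

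Neuronal members were low in most libraries. *Snap25* and *Syt1* serve synaptic vesicle release, *Rbfox3* is the splicing factor known as NeuN, and *Tubb3* is a neuronal tubulin. The 4 genes summed to 0 to 0.112 CPM with a median of 0 in hypothalamic act cells, where none of them was detected in any of 16 libraries. In rest brain act cells the sum was 0 to 90.2 CPM with a median of 0.434, and 10 of 13 libraries had at least 1 of the genes. Tregs had 0 to 105 CPM with a median of 0 in the hypothalamus, and 0 to 79.4 CPM with a median of 0.0956 in rest brain. *Snap25* led by mean TPM in hypothalamic Tregs (6.68), from 105 CPM in BL6 SD replicate 1 and 62.6 CPM in BL6 SD replicate 4. *Syt1* led in rest brain act cells (1.27 TPM) and Tregs (1.83 TPM), and *Tubb3* in hypothalamic act cells (0.00802 TPM). Both libraries that stood apart had 0 counts of all 4 neuronal genes, while BL6 SD Treg replicate 3 had 983 counts (117 CPM) of *Stmn2*, a neuronal gene outside the members, and 181 counts (21.5 CPM) of *Oxt*, the oxytocin precursor.

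Among 8 further neuronal genes, the medians were 1.65 and 2.87 CPM in act cells and Tregs of the hypothalamus and 9.38 and 14.2 CPM in those of rest brain. In rest brain Tregs the highest sums were 1225 CPM in BalbC HFD replicate 4 and 554 CPM in BalbC SD replicate 2. In rest brain act cells they were 587 CPM in BalbC SD replicate 3 and 145 CPM in BalbC SD replicate 2. Tregs of the hypothalamus reached 187, 127 and 123 CPM, the last in BL6 SD replicate 3. *Nefl*, a neurofilament gene, led by mean TPM in hypothalamic act cells (0.970), *Syp*, of synaptic vesicles, in hypothalamic Tregs (13.2), and the noncoding RNA *Meg3* in rest brain act cells (7.10) and Tregs (17.8). Of 10 hypothalamic neuropeptide genes, the sum had medians of 0.893 and 0 CPM in act cells and Tregs of the hypothalamus and of 3.65 and 0.475 CPM in those of rest brain. *Pomc*, the melanocortin precursor, was the most abundant of them in hypothalamic act cells (1.96 TPM) and Tregs (8.50 TPM), *Sst*, somatostatin, in rest brain act cells (5.81 TPM) and *Npy*, neuropeptide Y, in rest brain Tregs (4.19 TPM). *Avp* and *Gal* were detected in no library, and *Oxt*, *Hcrt* and *Trh* in 1 each. The highest sums were 70.9 CPM in hypothalamic Tregs and 44.0 CPM in rest brain act cells, and no difference between the tissues was tested. For 5 choroid plexus genes the medians were 6.78 and 0 CPM in hypothalamic act cells and Tregs and 10.3 and 0.0200 CPM in those of rest brain. *Enpp2*, the enzyme autotaxin, was the most abundant of these in all 4 groups by mean TPM, from 2.92 in rest brain Tregs to 16.3 in hypothalamic Tregs. In the latter group its median was 0 TPM, with 177 TPM in BalbC HFD replicate 4. *Ttr*, the defining transthyretin, was detected in 2 libraries.

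Red cells were represented by the alpha globin *Hba-a1* and the beta globin *Hbb-bs*, of which the latter had 0 counts throughout. *Hba-a1* was detected in 3 of 16 hypothalamic act, 4 of 16 hypothalamic Treg, 1 of 13 rest brain act and 6 of 14 rest brain Treg libraries. Its highest levels in these groups were 2.77, 199, 3.25 and 38.5 CPM, and its mean levels 0.999, 70.4, 0.848 and 20.5 TPM. Another 5 red cell genes had medians of 0 CPM in hypothalamic act cells, hypothalamic Tregs and rest brain Tregs and of 0.142 CPM in rest brain act cells. *Hba-a2* led by mean TPM in hypothalamic Tregs (169) and rest brain Tregs (7.26), and *Alas2*, of heme synthesis, in rest brain act cells (0.279). BL6 SD Treg replicate 2 of the hypothalamus had 199 CPM of *Hba-a1* and 861 CPM of these 5 genes. *Hba-a1* and *Hba-a2*, like *Hbb-bs* and *Hbb-bt*, are nearly identical in sequence, so the division of reads between them is uncertain.

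*Cd79a*, a chain of the B-cell receptor complex, was detected in 13 libraries. It was at 374 CPM in BL6 SD Treg replicate 2 of the hypothalamus and at 44.8 CPM in BL6 SD act replicate 2 of rest brain, and the medians of all 4 groups were 0 CPM. Mean levels of *Cd79a* were 0.298 TPM in hypothalamic act cells, 27.7 TPM in hypothalamic Tregs, 3.95 TPM in rest brain act cells and 0.958 TPM in rest brain Tregs. Another 5 B-cell genes, led by *Cd79b* in all 4 groups, had medians of 0 CPM in both hypothalamic populations, 6.64 CPM in rest brain act cells and 18.4 CPM in rest brain Tregs, and reached 1072 CPM in that same hypothalamic library. *Cd79b*, the partner of *Cd79a* in the receptor complex, had means of 1.03, 40.1, 6.08 and 32.3 TPM in the order just given for *Cd79a*. B220 had been used to exclude B cells from the sort.

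*Lyz2*, a lysozyme of macrophages and granulocytes, was detected in 4 libraries, with 1682 and 54.0 CPM in BL6 SD Treg replicates 3 and 1 of the hypothalamus, 13.1 CPM in BalbC HFD Treg replicate 4 of rest brain and 8.64 CPM in BalbC SD act replicate 3 of rest brain. Its means were 0.00522 and 163 TPM in hypothalamic act cells and Tregs and 0.819 and 1.46 TPM in those of rest brain. A list of 7 myeloid genes had medians of 234, 109, 259 and 118 CPM in hypothalamic act cells, hypothalamic Tregs, rest brain act cells and rest brain Tregs. *Ccr2*, a chemokine receptor that activated T cells also express, led in hypothalamic act cells (98.4 TPM), rest brain act cells (75.6 TPM) and rest brain Tregs (60.9 TPM), while *Pf4*, of platelets and macrophages, led in hypothalamic Tregs (146 TPM, with a median of 0). Genes of the antigens used for exclusion, *Cd8a*, *Itgam*, *Itgax*, *Cd14* and *Adgre1*, had medians of 99.2 CPM in hypothalamic act cells, 120 CPM in rest brain act cells and 0 CPM in the Tregs of both tissues. By mean TPM, *Cd8a* led this list in act cells of the hypothalamus (49.9) and rest brain (34.4), and *Cd14* in Tregs of the hypothalamus (27.9) and rest brain (0.951). The list reached 2012 CPM in BalbC SD Treg replicate 2 of the hypothalamus, and *Itgax* was detected in no library.

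Labels of the 59 libraries give 21 combinations of strain, diet and pool numbers, of which 19 occur in more than 1 library and 8 in 4 libraries. Where the same numbers recur within a strain and diet, they may stand for the same mice, which the labels do not state. Libraries that share these labels are called a pool below. In pool 32 and 36 of BalbC mice on SD, the microglia list was at 20154 CPM in hypothalamic Tregs, 0.169 CPM in hypothalamic act cells and 17.6 CPM in rest brain act cells. Pool 11 and 15 of BL6 mice on SD had 2218 CPM in hypothalamic Tregs, 212 CPM in rest brain Tregs, 38.4 CPM in rest brain act cells and 0.0551 CPM in hypothalamic act cells. In pool 42 and 46 of BalbC mice on SD, the level was 585 CPM in rest brain act cells, 142 CPM in rest brain Tregs, 2.66 CPM in hypothalamic act cells and 0 CPM in hypothalamic Tregs. In each of the 3 pools some libraries were high and others low, and whether levels follow the pool was not tested. Among 82 pairs of libraries of the same group, 0 had identical values.

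Strain and diet were tested with edgeR in a fit for each tissue and population over all genes that passed a filter of more than 10 counts in at least the number of libraries of the smallest group. This filter passed 7 of the 40 members in hypothalamic act cells, 8 in hypothalamic Tregs, 24 in rest brain act cells and 21 in rest brain Tregs. A member that passed only through the group in which it was high had to differ between groups, so counts and medians over those that passed support nothing about the list. The same holds for the p-values of such a gene.

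In rest brain act cells, 4 of 24 members tested differed between strains at an adjusted p-value under 0.05, or 16.7%, against 23.6% of all 12257 genes tested. By DESeq2 it was also 4 of 24, against 30.6% of genes. The share of members lay below the background and is not a result about the list. The median log2 fold change, BalbC over BL6, was 2.82 over the 24 members and −0.03 over all genes, and 20 of the 24 members were higher in BalbC mice. Genes of T cells differed in the same fit, with log2 fold changes of −1.02 for *Cd4*, −0.92 for *Lck*, −0.91 for *Cd5*, 0.71 for *Cd3g* and 0.58 for *Cd3d*.

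*Cnp* was at 254.8, 253.2, 268.0 and 320.1 CPM in BL6 mice on SD and at 159.6, 255.8 and 258.3 CPM in BL6 mice on HFD. In BalbC mice, the values were 107.1, 131.5 and 164.2 CPM on SD and 50.8, 84.3 and 108.7 CPM on HFD. The strains overlapped through 1 library each, BL6 HFD replicate 1 and BalbC SD replicate 1. The log2 fold change of *Cnp* was −0.96 (SE 0.18, edgeR, adjusted p = 0.000599), and it lay between −1.06 and −0.91, with a call each time, when any 1 of the 13 libraries was left out. DESeq2 gave −0.92. *Cnp* thus had the opposite direction to the other 3 members called.

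*Siglech* had 1 count in the 7 BL6 libraries together. In BalbC mice it was at 0.981, 2.93 and 17.7 CPM on SD and 0, 0.274 and 0.323 CPM on HFD, so that 5 of 6 libraries exceeded 3 counts and 1 BalbC library overlapped with the BL6 libraries. *Siglech*, *Csf1r* and *Syt1* had more than 10 counts in 0, 0 and 1 of the BL6 libraries and in 3 of the BalbC libraries each, and thus passed the filter only through BalbC mice, so their calls are given as description. The ratio of pooled levels was 430 with a counting interval of 76.6 to 17035, and 157 with an interval of 27.6 to 6272 without BalbC SD act replicate 3. The fitted log2 fold change, which depends on the prior count, was 7.95 (edgeR, adjusted p = 0.000791). With 1 library left out it lay between 6.45, without BalbC SD act replicate 3, and 8.40.

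*Csf1r* rested on 7 counts over the BL6 libraries, where its levels were 0 to 0.217 CPM with a median of 0. BalbC mice had 0.763, 1.19 and 25.8 CPM on SD and 0, 0.156 and 0.539 CPM on HFD, so the strains overlapped in 2 BalbC libraries. Its log2 fold change was 5.48 (edgeR, adjusted p = 0.0244). The call was lost without BalbC HFD act replicate 2 (edgeR, adjusted p = 0.0592, log2 fold change 5.48) and without BalbC SD act replicate 3 (edgeR, adjusted p = 0.104, log2 fold change 3.51), and the value was 6.74 without BL6 HFD act replicate 3. DESeq2 did not call *Csf1r*. The ratio of pooled levels fell from 71.5 (34.3 to 179) to 12.6 (5.72 to 32.8) without BalbC SD act replicate 3.

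*Syt1* was at 0 to 2.08 CPM with a median of 0.272 in the 7 BL6 libraries and at 0.104 to 62.9 CPM with a median of 0.839 in the 6 BalbC libraries. The highest values of BalbC mice were 62.9 and 5.72 CPM, and the other 4 overlapped with the range in BL6 mice. Its log2 fold change was 4.02 (edgeR, adjusted p = 0.0345). It was called in 7 of 13 fits without 1 library, and not without BL6 HFD act replicate 1 (log2 fold change 3.87; edgeR, adjusted p = 0.0527) or 2 (4.06; 0.0518), BL6 SD act replicate 1 (3.76; 0.0665) or 4 (3.76; 0.0630), BalbC HFD act replicate 2 (3.97; 0.0693) or BalbC SD act replicate 3 (2.35; 0.270). The fold change thus stayed near its value in 5 of these 6 fits. It was 4.75 without BL6 SD act replicate 3 and 4.66 without BL6 HFD act replicate 3. Without BalbC SD act replicate 3, the ratio of pooled levels went from 15.8 (12.5 to 20.2) to 2.98 (2.25 to 3.98).

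**Figure D3:**
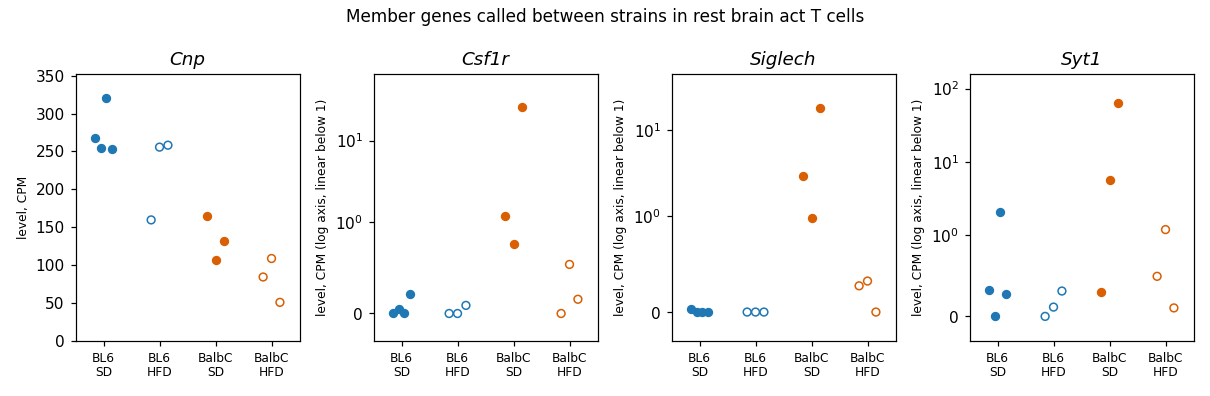
Levels in CPM of the 4 member genes called between strains in rest brain act cells, in 7 BL6 and 6 BalbC libraries (filled points SD, open points HFD, log axes linear below 1 except for *Cnp*). *Cnp* ran from 159.6 to 320.1 CPM in BL6 and from 50.8 to 164.2 CPM in BalbC mice, and the highest value of *Csf1r*, *Siglech* and *Syt1* was in BalbC SD act replicate 3.

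How many members were called between strains changed with the library left out. It was 2 without BalbC SD act replicate 3 (*Cnp* and *Siglech*) and 7 without BL6 HFD act replicate 3 or without BalbC HFD act replicate 1. Leaving out a library from a group of 3 also lowers the number of libraries that the filter asks for, so that further members can pass. The effects of the library and of the filter were not told apart. The share of all genes called in these fits is not given here, so the counts are no result about the list. With a filter of more than 10 counts in total, 8 of 37 members were called, against 16.6% of all genes, adding *Cdh5*, *Lyz2*, *Rbfox3* and *Tubb3*. These 4 had 0 to 0.209 CPM in all BL6 libraries and their highest level, 0.441 to 20.7 CPM, in BalbC SD act replicate 3. DESeq2 called *Pecam1* in place of *Csf1r*. *Pecam1* stood at 18.2 to 73.7 CPM in BL6 mice with a median of 32.1 and at 10.9 to 24.4 CPM in BalbC mice with a median of 17.1, a log2 fold change of −0.97 (DESeq2, adjusted p = 0.0290) or −1.02 (edgeR, adjusted p = 0.0539).

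Companion genes of the 11 further lists passed the filter in rest brain act cells in 29 cases, of which 7 were called between strains, a share near the 23.6% of all genes and so no result about these lists. All 7 were higher in BalbC mice, and 5 of them are given here. *Meg3* was at 0.402 to 33.3 CPM with a median of 1.96 in BL6 and 7.73 to 541 CPM with a median of 45.9 in BalbC mice, a log2 fold change of 4.17 (edgeR, adjusted p = 0.00158). The ranges overlapped. *Mal*, not detected in the 7 BL6 libraries, was detected in 4 of 6 BalbC libraries (log2 fold change 7.35). The microglial receptor *P2ry13* (5.16) was detected in 2 BL6 and 3 BalbC libraries and the kinase gene *Camk2a* of neurons (4.05) in 3 and 5. *Ccr2* (0.64) was detected in all 13 libraries with medians of 223 and 274 CPM in BL6 and BalbC mice. *Mal*, *P2ry13* and *Camk2a*, too, passed the filter only through BalbC mice. The highest level of *Meg3*, *Mal*, *P2ry13* and *Camk2a* was again in BalbC SD act replicate 3, and that of *Ccr2* was not.

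In the other 3 groups, edgeR called 0 members between strains, and whether their strain difference departs from that of rest brain act cells was not tested. In hypothalamic act cells, 0 of 7 members were called, against 2.1% of 10846 genes, and 0 members and 1077 genes had an unadjusted p-value under 0.05. DESeq2 also called 0 of the 7, against 4.23% of genes. The median log2 fold change was 0.10 over the 7 members and 0.01 over all genes. Levels of the 40 genes were 231 to 638 CPM with a median of 355 in BL6 mice and 336 to 468 CPM with a median of 395 in BalbC mice.

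Rest brain Tregs had 0 of 21 members called between strains by edgeR, against 0.3% of 11679 genes, with 8 members and 1037 genes at an unadjusted p-value under 0.05. DESeq2 called 2 of 21, against 2.55% of genes: *Ptgds*, detected in 1 of 8 BL6 and 3 of 6 BalbC libraries, and *Sparcl1*, detected in 0 of 8 and 4 of 6. Neither gene could have passed the filter on its BL6 libraries. *Ptgds* was highest at 15.4 CPM in BL6 and 187 CPM in BalbC mice, and *Sparcl1* at 0.0574 and 61.3 CPM. The median log2 fold change of the 21 members was 3.32, and that of all genes 0.08. Apart from *Mbp*, *Cnp* and *Pecam1*, the members summed to 0.592 to 252 CPM with a median of 15.8 in BL6 mice and to 2.06 to 727 CPM with a median of 75.5 in BalbC mice, so that the strains overlapped widely.

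Hypothalamic Tregs had 0 of 8 members called between strains by edgeR, against 0.0389% of 7708 genes, with 1 member and 292 genes at an unadjusted p-value under 0.05. DESeq2 called 0 of 8, against 3.24% of genes. The median log2 fold change was 0.87 over the 8 members and −0.28 over all genes, and DESeq2's size factors brought the latter to −0.16. With a filter of more than 10 counts in total, 1 of 35 members was called, against 0.0838% of genes: *Apod*, detected in 3 of 8 BL6 and 0 of 8 BalbC libraries. *Apod* was at 6453 CPM in BL6 SD Treg replicate 3 and 208 CPM in the next library. Without the 2 libraries that stood apart, 0 of 5 members were called by edgeR (0 at an unadjusted p-value under 0.05; 0.0251% of genes called), 0 of 5 by DESeq2 (4.94%) and 0 of 27 with the filter on the total (0.0258%). The medians of log2 fold changes were then 0.85 over 5 members and 0.06 over all genes. In those 14 libraries, 1 to 21 members were detected per library in BL6 mice and 1 to 4 in BalbC mice, with a median of 3 in each.

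Between diets, edgeR called 0 members in all 4 groups, where it also called 0% of all genes. In hypothalamic act cells, 0 of 7 members and 405 of 10846 genes had an unadjusted p-value under 0.05, and DESeq2 called 0 of 7, against 0.083% of genes. In rest brain act cells, 6 of 24 members and 594 of 12257 genes had an unadjusted p-value under 0.05. DESeq2 called 1 of 24 there, against 0.0979% of genes: *Sparcl1*, detected in 6 of 7 libraries on SD and 0 of 6 on HFD, which passed the filter only through SD. It was at 0 to 54.1 CPM with a median of 0.217 on SD and at 0 to 0.121 CPM with a median of 0.0223 on HFD. In rest brain Tregs, 5 of 21 members and 850 of 11679 genes had an unadjusted p-value under 0.05. DESeq2 called 1 of 21, against 2.79% of genes: *Trem2*, detected in 3 of 8 libraries on HFD and 0 of 6 on SD, with 11.1 and 9.77 CPM as its highest levels. *Trem2* passed the filter only through HFD, so neither call counts against the share of all genes. Median log2 fold changes, HFD over SD, were −0.11 over the members and −0.01 over all genes in hypothalamic act cells, −2.43 and −0.02 in rest brain act cells and −0.14 and 0.10 in rest brain Tregs.

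The members in hypothalamic Tregs are described by diet next, without a test. On HFD, 7 of the 40 were detected in at least 1 of 8 libraries (*Apod*, *Apoe*, *Cd79a*, *Cnp*, *Mag*, *Mbp* and *Pecam1*). On SD, 35 were detected in at least 1 of 8 libraries, and 28 in at least 1 of the 6 that remain without the 2 libraries standing apart. Libraries on SD had 1 to 31 members detected with a median of 7, or 1 to 21 with a median of 4.5 without the 2, and libraries on HFD had 1 to 4 with a median of 3. Of all genes, 12715 were detected in at least 1 library on SD, 10105 without the 2, and 10390 on HFD. Beside the 2 libraries, BL6 SD Treg replicates 1 and 2 had 21 and 9 members, whereas BL6 SD Treg replicate 4 had 5 and BalbC SD Treg replicates 1, 3 and 4 had 4, 3 and 1, near the range on HFD. Apart from *Mbp*, *Cnp* and *Pecam1*, the members summed to 0 to 28224 CPM with a median of 494 on SD and to 0 to 76.5 CPM with a median of 0.242 on HFD. The 6 highest libraries were all on SD, and the diets overlapped through the lower libraries on SD, of which BalbC replicates 3 and 4 had 0.0662 and 0 CPM. The microglia list was at 0 to 20154 CPM with a median of 129 on SD and at 0 to 0.119 CPM with a median of 0.0260 on HFD.

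By edgeR, 0 of 8 members were called between diets in hypothalamic Tregs, against 0% of 7708 genes, while 5 members and 212 genes had an unadjusted p-value under 0.05. DESeq2 called 1 of 8, against 2.36% of genes: *Hba-a1*, detected in 4 of 8 libraries on SD, with 199 and 79.2 CPM as its highest levels, and listed at 0 in all 8 on HFD, so that it passed the filter only through SD. *Hba-a2*, from which it is hardly told apart, was at 28.9 CPM in BL6 HFD Treg replicate 1, so this call does not speak for alpha globin RNA as a whole. With a filter of more than 10 counts in total, edgeR called 12 of 35 members, all lower on HFD, against 0.297% of genes. These were *Apoe*, *C1qa*, *C1qb*, *C1qc*, *Cldn5*, *Clu*, *Csf1r*, *Lyz2*, *P2ry12*, *Siglech*, *Sparc* and *Sparcl1*, each detected in 2 to 4 of the 8 libraries on SD, with its highest level in a library that stood apart. All but *Apoe* had at most 1 count on HFD and passed only through SD, so the 12 calls are given as description. Without the 2 libraries, edgeR called 0 of 5 members (0% of genes), and with the filter on the total 0 of 27 (0.00861% of genes). In the first fit 1 member and 7.22% of genes had an unadjusted p-value under 0.05, and in the latter 10 members and 15.5% of genes. The fitted log2 fold changes of the 12 members, which depend on the prior count where a gene had few or no counts on HFD, went from −16.38 to −9.58 with the 2 libraries and from −11.03 to −6.62 without them. Fewer libraries on SD were also fitted, and what the loss of the calls rests on was not tested. DESeq2 without the 2 libraries called 1 of 5, again *Hba-a1*, against 8.05% of genes.

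Leaving out 1 library lowers the size of the smallest group that the filter uses, and 8 to 21 members then passed in hypothalamic Tregs. Members called between diets were then 7 without BalbC SD Treg replicate 3 (*C1qa*, *C1qb*, *Cldn5*, *Csf1r*, *P2ry12*, *Sparc* and *Sparcl1*) and 5 without BalbC SD Treg replicate 4 or BL6 SD Treg replicate 4. They were 2 without BalbC SD Treg replicate 1 or BL6 SD Treg replicate 2, and 1, *Sparc*, without BalbC HFD Treg replicate 3, BL6 HFD Treg replicate 1 or BL6 HFD Treg replicate 2. The other 8 fits called 0, among them those without either library that stood apart. Of all genes, at most 0.115% were called in any of the 16 fits. The 7 genes had at most 1 count in each library on HFD and passed the lowered filter only through SD, so these calls are no result about the list. Over the 8 members that passed, the median log2 fold change was −10.85, or −9.98 with the 3 members at 0 on HFD set to their bound of 3 counts over the group, and that over all genes was 0.19. DESeq2's size factors brought the median of all genes to 0.03. Without the 2 libraries the medians were 0.14 over 5 members and 0.23 over all genes. The interaction of diet with tissue, strain or population was not tested for these genes.

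In the pilot experiment, the deposited counts on genes ran from 99925 to 5334511 per library, or 0.391% to 17.1% of reads, and 33 of the 40 members exceeded 3 counts in at least 1 of 8 libraries. The 7 that did not were *Gfap*, *Mog*, *Mag*, *Cldn5*, *Cdh5*, *Hba-a1* and *Hbb-bs*. The WT CD25hi Treg library stood apart, with 38760 CPM of the 40 genes and 25 members detected. The other 7 libraries had 328 to 3973 CPM and 3 to 12 members. The T-cell list came to 87.4 CPM in the WT CD25hi Treg library and to 5901 to 16185 CPM in the others, so that this library, too, went against its label. Its level depends on the scaling: with median-of-ratios size factors on the CPM scale, the 40 genes came to 119451 instead of 38760. The Treg list stood at 2918 CPM in WT CD4+ T cells and at 27.4 CPM in WT CD25hi Tregs. It was at 2302 CPM in *ob*/*ob* CD25hi Tregs and at 3707 and 6058 CPM in Foxp3GFP Tregs on HFHSD and regular diet. *Foxp3* was highest of the 8 libraries in WT CD4+ T cells, at 299.5 CPM. The paper gives these cells as CD4+CD25−, so that library went against its description as well.

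All 11 microglia genes were detected in the WT CD25hi Treg library, at 30641 CPM together (counting interval 30495 to 30787). *Tmem119*, absent from the counts of all other pilot libraries, had 854 CPM, and *Sall1* had 1408 CPM. The astrocyte list was at 3471 CPM (3421 to 3521) with 8 of 9 genes, *Gfap* being at 0. Of the endothelial list, *Sparc* and *Sparcl1* had 2333 and 1795 CPM, while *Cldn5*, *Pecam1*, *Cdh5* and *Flt1* had 0. In BalbC SD Treg replicate 2 of the second experiment, by comparison, *Sparc* was at 5612 CPM and *Sparcl1* at 1.47 CPM. Neuronal, red cell and B-cell members had 0 counts in the WT CD25hi Treg library, and *Lyz2* had 214. Of the further lists, the neuronal genes had 225 counts there (42.2 CPM), 127 of them *Meg3*, the red cell genes 653 (122 CPM), all *Alas2*, and the B-cell genes 0.

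Genes of the astrocyte list were present in several other pilot libraries, in some of them mostly through 1 gene. In *ob*/*ob* CD25hi Tregs, a library of 99925 counts, the list had 316 counts or 3162 CPM (2824 to 3530), and *Lyz2* had 68 counts or 680.5 CPM. In Tregs of Foxp3GFP mice on regular diet it was at 724 CPM (678 to 773), of which *Aqp4* made 587 CPM, against 39.9 CPM (31.7 to 49.6) on HFHSD. In CD4+ CD44- T cells the same list was at 56.4 CPM (48.6 to 65.1) on regular diet. On HFHSD it was at 64.4 CPM (54.2 to 75.999), of which *Ptgds* made 55.2 CPM. The library labeled WT CD4+ T cells, which had the highest *Foxp3* of the pilot, had 540 CPM (447 to 646), all 119 counts of it *Slc1a2*. *ob*/*ob* CD4+ T cells had 35.3 CPM (27.0 to 45.4). With 1 library per condition, no difference between these values was tested.

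Outside the WT CD25hi Treg library, the microglia list was at 0 to 70.1 CPM in the pilot, the highest value standing for 7 counts in *ob*/*ob* CD25hi Tregs. *Siglech* alone made 43 of 44 counts of the list in *ob*/*ob* CD4+ T cells and 104 of 106 in Foxp3GFP CD4+ CD44- T cells on regular diet. The oligodendrocyte list was at 31.8 to 602 CPM over the 8 libraries, with *Cnp* detected in all 8 and *Mbp* in 6. *Pecam1* was detected in 5 libraries, at 49.8 to 117 CPM. Neuronal members were detected in 3 libraries: *Tubb3* with 11 counts in WT CD4+ T cells, *Rbfox3* with 14 counts in Foxp3GFP CD4+ CD44- T cells on regular diet, and *Snap25* and *Syt1* with 39 and 7 counts in Foxp3GFP Tregs on regular diet. *Cd79a* had 4 counts in 1 library, and the globin genes had 0 in all 8.

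**Figure D4:**
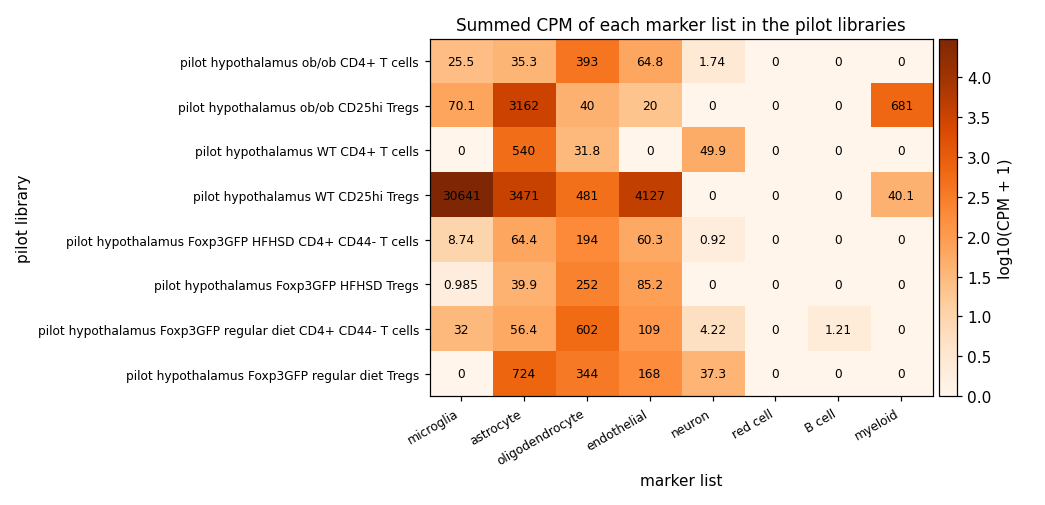
Summed CPM of the 8 marker lists (columns) in the 8 pilot libraries (1 line each), with the color on a log10 scale of CPM + 1. The WT CD25hi Treg library had 30641 CPM of the microglia list, against at most 70.1 CPM in the other 7 libraries.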

How the data were processed

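Members and lists were chosen with earlier results of these data known. For the pilot, the authors mapped single-end reads of 75 bases to mm10 with BWA and used HTSeq for counts per symbol, so that each deposited pilot file holds unnormalized counts for 24421 symbols. For the second experiment, the deposited values are Salmon estimated counts and TPM for 35034 transcript names, of which 34850 (99.5%) were matched to genes by name, and estimated counts and TPM were summed over the names of a gene. Tools and build are those in the submitters' processing notes.

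Rounded estimated counts were fitted with edgeR 4.0.16 in R 4.3.3 (diet and strain as terms, TMM, quasi-likelihood, more than 10 counts in at least the number of libraries of the smallest group, Benjamini-Hochberg over all genes, threshold 0.05) for each tissue and population, 8 comparisons in all. Fits and summaries were tested on simulated data. Alternatives were DESeq2 1.42.0, its size factors in edgeR, a filter of more than 10 counts in total and leaving out each library, and, for levels, TMM-scaled CPM, deposited TPM, leaving out the most abundant member and median-of-ratios size factors in the pilot. Counting intervals are exact at 95%. Python 3.11.15 with numpy 2.4.6, pandas 2.3.3, scipy 1.17.1 and matplotlib 3.10.9 was used for the rest.

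Beside the 8 member lists, 77 companion genes in 11 lists were described (microglia, astrocyte, oligodendrocyte, endothelial, neuron, red cell, B cell, myeloid, hypothalamic neuropeptide, choroid plexus and exclusion antigens), of which 76 were in the files (*Ighm* was not), as well as a T-cell and a Treg list. Values are given by rule for members called in a fit, the most abundant member of each list by mean TPM, the defining markers *P2ry12*, *Tmem119*, *Gfap*, *Aqp4*, *Mog*, *Mbp*, *Cldn5*, *Cdh5*, *Snap25*, *Syt1*, *Hbb-bs*, *Cd79a* and *Lyz2*, and companions that were called or most abundant, of which some are left out. Other genes with values were chosen after their values were seen.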

Additional observations from a re-analysis of the deposited data

Results flagged for a closer look

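In each of 12 groups of 4 libraries, the sum of each of the 8 member lists was looked at on a log2 scale, and 26 of 96 cases had 1 library far from the other 3 by Dixon's ratio. Chance flags about 1 in 20 groups, a rate that does not apply to 15 of the 26, where the other 3 libraries had 0 and any value stands out by construction. The number of cases is therefore no result. All values are CPM. The flagged values of 0.0567 for microglia, 0.0568 and 0.112 for neurons and 0.0589 for *Lyz2* stand for 3 counts or fewer, so these genes were not detected there.

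For the microglia list, hypothalamic BalbC SD Treg replicate 2 had 20154, with 0 in the other 3. BL6 SD Treg replicate 3 of rest brain had 212, the others 0.0581, 0.148 and 0.320. BL6 HFD Treg replicate 2 of rest brain had 13.3, the others 0, 0.253 and 0.344. BL6 SD act replicate 2 of the hypothalamus had 8.08, the others 0.0551, 0.0557 and 0.114. BL6 HFD Treg replicate 1 of the hypothalamus had 0.0567, with 0 in the other 3.

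Among the astrocyte sums, hypothalamic BalbC SD Treg replicate 2 had 2415, with 0 in the other 3. The oligodendrocyte sum was low in BL6 SD Treg replicate 3 of rest brain at 2.51, against 171, 178 and 379. Endothelial genes were low in BalbC HFD Treg replicate 2 of rest brain at 54.3, against 124, 136 and 141. They were low, too, in BL6 HFD act replicate 4 of the hypothalamus at 1.44, against 32.9, 36.9 and 45.7. In contrast, BL6 HFD Treg replicate 4 of the hypothalamus had 61.4 of them, against 0, 0 and 0.0567.

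Neuronal genes stood at 2.42 in BL6 SD act replicate 3 of rest brain, against 0.314, 0.355 and 0.434. They stood at 0.0568 in BL6 SD act replicate 1, at 0.527 in BalbC SD Treg replicate 1 and at 0.112 in BalbC SD act replicate 2 of the hypothalamus, each with 0 in the other 3.

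Red cell genes were at 79.2 in BalbC SD Treg replicate 1 of the hypothalamus, with 0 in the other 3. Their level was 10.8 in BalbC HFD Treg replicate 3 of rest brain and 0.909 in BL6 HFD act replicate 4 of the hypothalamus, again with 0 in the other 3. It was 3.25 in BL6 SD act replicate 3 of rest brain, against 0, 0 and 0.0543.

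*Cd79a*, the B-cell member, was at 44.8 in BL6 SD act replicate 2 of rest brain, against 0, 0 and 0.434. It was at 2.27 in BalbC SD act replicate 3 of the hypothalamus, against 0, 0 and 0.189. With 0 in the other 3 libraries, it was at 6.25 in BL6 HFD Treg replicate 4 and 1.75 in BalbC HFD Treg replicate 2 of rest brain. In the hypothalamus, also with 0 in the others, it was at 11.7 in BalbC HFD Treg replicate 3 and 2.04 in BalbC HFD act replicate 4. *Lyz2*, the myeloid member, was at 13.1 in BalbC HFD Treg replicate 4 of rest brain and at 0.0589 in BalbC HFD act replicate 3 of the hypothalamus, each with 0 in the other 3.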

How the results depend on the processing

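Leaving out 1 library at a time moved 11 of 118 counts of members called by more than 1.5 times. Other alternatives moved 14 of 117 median list levels by more than the spread between libraries. They moved 8 of 30 counts of members called and 12 of 30 counts of all genes called, so this was not particular to the members. They also moved 4 of 8 pilot levels beyond their counting intervals (in the WT CD25hi Treg library from 38760 to 119451).

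Members called changed as follows, and the cause was not tested except where stated. Between diets in hypothalamic Tregs, where edgeR called 0, DESeq2 called 1, with or without the 2 libraries standing apart (chosen after seeing the data), a filter on the total 12, and fits without 1 library 0 to 7. Between strains there, the filter on the total gave 1. Between strains in rest brain act cells, 4 became 8 with the filter on the total, which admits more genes. They became 2 to 7 without 1 library, where the filter can be lowered too. For the fits without 1 library, the share of all genes is given above in hypothalamic Tregs and is not given in rest brain act cells. The counts of members called in these fits are no result about the list. DESeq2 called 1 member between diets in rest brain act cells, and 2 between strains and 1 between diets in rest brain Tregs, where edgeR called 0.

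Deposited TPM brought the oligodendrocyte medians to 153 in hypothalamic act cells, 135 in rest brain act cells and 211 in rest brain Tregs, the endothelial medians to 13.5 in hypothalamic act cells and 42.04 in rest brain Tregs, and that of all 40 members in hypothalamic act cells to 185. Without *Cnp*, the oligodendrocyte medians were 87.6, 84.4 and 69.1 CPM in the same groups, and without *Mbp* and *Cnp* (chosen after seeing the data) 0, 3.03 and 0.0591 CPM. Without *Pecam1* (chosen after seeing the data), the endothelial medians were 0 CPM in hypothalamic act cells and 0.0687 CPM in rest brain Tregs. Fewer genes in a sum lower it by construction.

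A library with 1724154 counts cannot show a gene below 1.74 CPM, and detection depends on depth, which differed up to the range given for the libraries. Strain, sex and any batch cannot be told apart, and the labels name no batch. Whether other cells or free RNA carried the transcripts was not tested.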
